A study of Sus scrofa with 20 samples.

Results

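The HOX cluster genes are the members of the HOXA, HOXB, HOXC and HOXD clusters, chosen here by gene name as the letters HOX, a cluster letter from A to D and a paralog number. The table of the pig series held 37 of them among 25764 genes, of which 17982 carried a name. Of these, 36 are described here, and all counts of members below are over them. HOXA6 and HOXA9 had no entry under these names and were not analysed here. RNA was measured in 20 libraries of isolated pig cells in 6 groups. The 5 pBTSC libraries (porcine biliary tree stem cells) came from the gallbladder by the labels, and from gallbladder and extrahepatic ducts of newborn piglets by the study's methods. The other 15 came from liver. They comprised 5 CD45+ libraries, 4 CD45-/EpCAM+ and 2 CD45-/EpCAM- libraries, and 2 each sorted for CD31 and for CD146. By the study's supplement the pBTSC libraries with storage numbers S2, S7 and S11 were from piglets carrying an H2B-GFP transgene in the ACTB locus, aged 1, 1 and 2 days, and S15 and S20 from wild-type piglets of mixed breed aged 1 day. The piglets, genotypes and ages behind the liver libraries are not given in the sources used here, so p-values over them measure the spread between these samples, which may be technical. The labels name no treatment. By the study's methods for genetic studies, immunoselected stem/progenitor cells were seeded in serum-free medium, where they formed organoids with early mesenchymal cells. Whether this was done for each library is not given in the sources used here.

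HOX genes encode transcription factors with a homeodomain that give cells their position along the head-to-tail axis of the embryo. Within a cluster the genes lie in the order of their paralog numbers. Low numbers (the 3′ end of the cluster) are switched on first and reach furthest towards the head, whereas high numbers (the 5′ end) are used in the trunk, limbs, hindgut and tail. Adult cells, connective tissue cells above all, keep part of the code of the place where they arose. The sets of genes on in a tissue are held by trithorax proteins and kept off by Polycomb proteins, and early HOX genes respond to retinoic acid.

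All levels below are the normalized counts that the authors deposited, which were not divided by gene length, so levels are compared between libraries and not between genes. A log2 fold change is the difference in log2(normalized count + 1) in a limma fit of all 20 libraries, in which liver is the unweighted mean of the 5 sorts. A gene was called when its adjusted p was under 0.05 and its log2 fold change was above 1 in size. In 17 libraries the estimated depth lay between 21300000 and 77800000 reads, and 1 read was worth at most 1.42 normalized counts. In the other 3 (S15 of the pBTSCs, S13 of the CD45-/EpCAM+ cells and S22 of the CD146+ cells) it lay between 455000 and 1570000, and 1 read was worth 12.6, 25.7 and 52.2. A value of 0 in these 3 libraries therefore allows a level of up to 37.7, 77.1 and 156 normalized counts, taking 3 reads as the floor.

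The transcripts of the sorting antigens did not separate the liver sorts. PTPRC, which encodes CD45, ranged from 424 to 2687 in the CD45+ cells and from 450 to 3027 in the CD45-/EpCAM+ cells. EPCAM ranged from 1205 to 1779 in the CD45-/EpCAM+ cells and from 1175 to 2232 in the CD45+ cells. Hepatocyte transcripts were abundant in all 5 liver sorts, where the sum of 9 markers ranged from 937991 to 2624554 against 27064 to 70877 in the pBTSCs. The sorts are therefore named by their labels here, and differences among them are described as differences between these libraries.

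Of the 36 members described, 21 reached 10 normalized counts in at least 2 libraries and were tested. They were HOXA2 to HOXA5 and HOXA7, HOXB2 to HOXB9, HOXC4 and HOXC5, and HOXD1, HOXD3, HOXD4 and HOXD8 to HOXD10. The other 15 were not tested, and 6 of them (HOXB1, HOXB13, HOXC11, HOXC12, HOXC13 and HOXD12) were listed at 0 in every library. The highest value of any untested member was 4.48, for HOXA13 in 1 CD45-/EpCAM- library, and the highest in pBTSCs was 3.20, for HOXC6 in S11. All 21 exceeded 3 reads in each of the 4 deeper pBTSC libraries, and 10 did so in each of the 13 deeper liver libraries. These 10 were HOXA2 to HOXA5, HOXB2 to HOXB5, HOXB7 and HOXD8. Only the same 10 of the members described would have been tested on the liver libraries alone. The other 11 reached the minimum through pBTSCs, except HOXD1, which reached it through 1 library of each tissue. A member that was tested because it was high in pBTSCs had to differ from liver, so the counts below describe the clusters and are not evidence for a rule over all members.

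**Figure D1:**
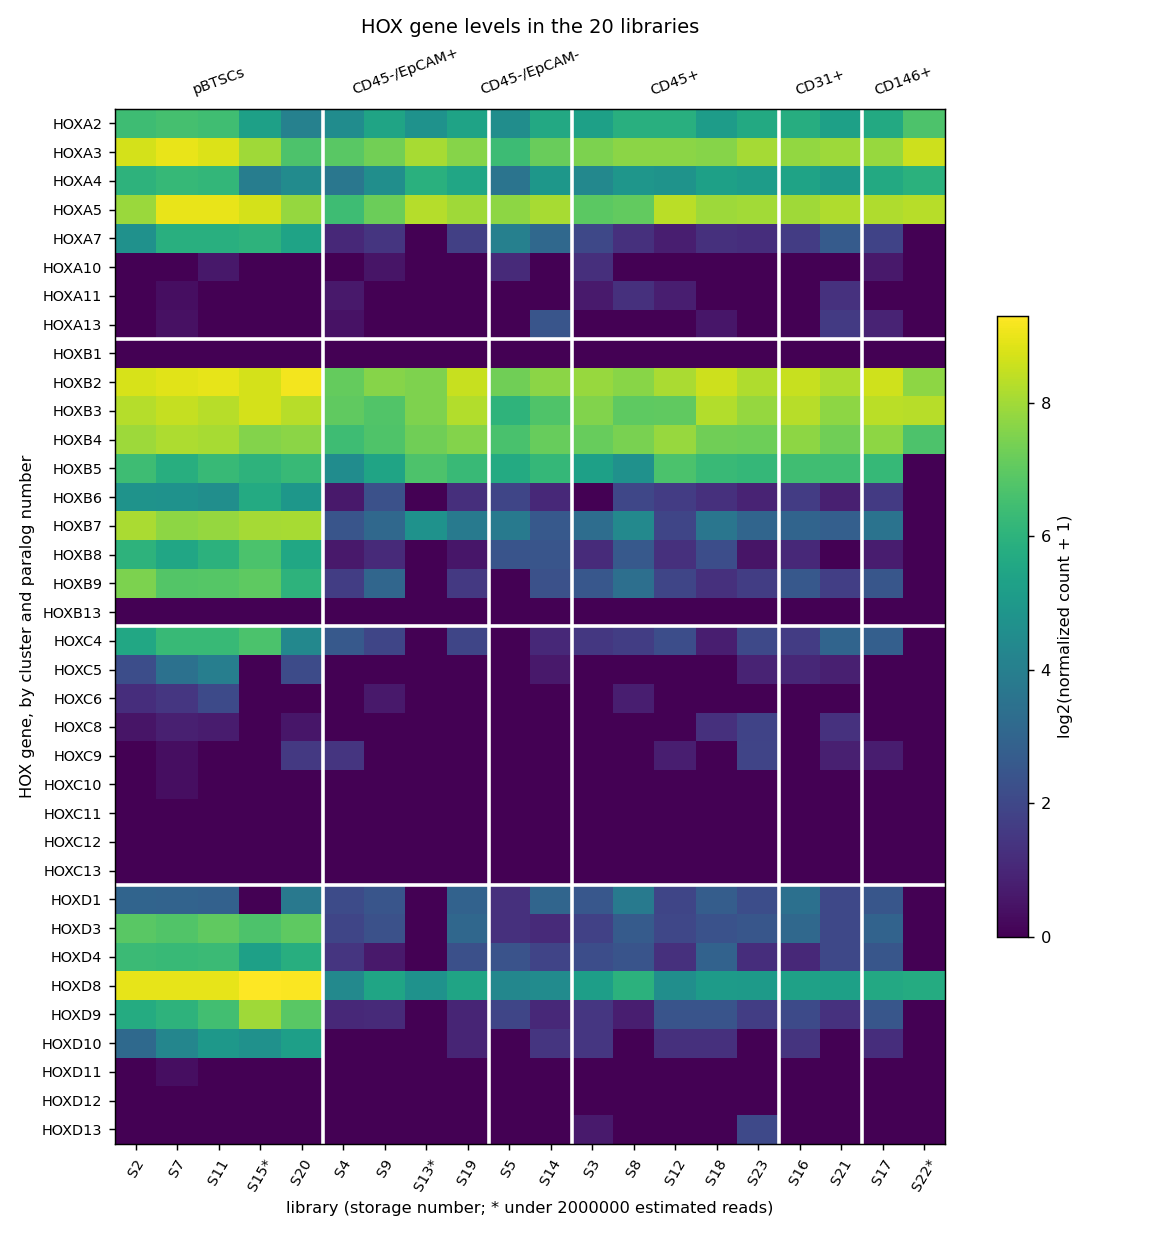
Level of each of the 36 HOX genes described (vertical axis, by cluster and paralog number) in each of the 20 libraries (horizontal axis, by sorted group), as colour on the log2(normalized count + 1) scale. HOXB6 to HOXB9, HOXC4 and HOXD3 to HOXD10 are bright in the 5 pBTSC libraries and dark in most liver libraries, with HOXD8 at an intermediate level in liver, while HOXA2 to HOXA5 and HOXB2 to HOXB5 are bright in both tissues.

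Against liver, pBTSCs carried 12 of the 21 tested HOX genes described at a higher level, and the other 9 were not called. Over all 15576 genes tested, 16.1% were called higher, 10.5% lower and 26.6% either way. The median log2 fold change of all genes was 0.11. In bulk libraries, fewer cells that express a gene and less RNA per cell cannot be told apart. The calls are given here by position in the cluster, as a description only. Apart from HOXB7 and HOXD8, each called member had reached the minimum for testing through pBTSCs. In HOXA and HOXB, none of the 8 tested members from HOXA2 to HOXA5 and HOXB2 to HOXB5 was called, with log2 fold changes from 0.28 to 0.93, whereas all 5 tested members numbered 6 to 9 were called higher, with log2 fold changes from 3.74 to 5.17. In HOXC, which begins at paralog 4, and in HOXD members with lower numbers were included, since HOXC4 and HOXC5 and all 5 tested members from HOXD3 to HOXD10 were called higher. HOXD1 was not called. Of the 12 members numbered 10 to 13, 11 were too low to test in either tissue, and HOXD10 was the one called.

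**Figure D2:**
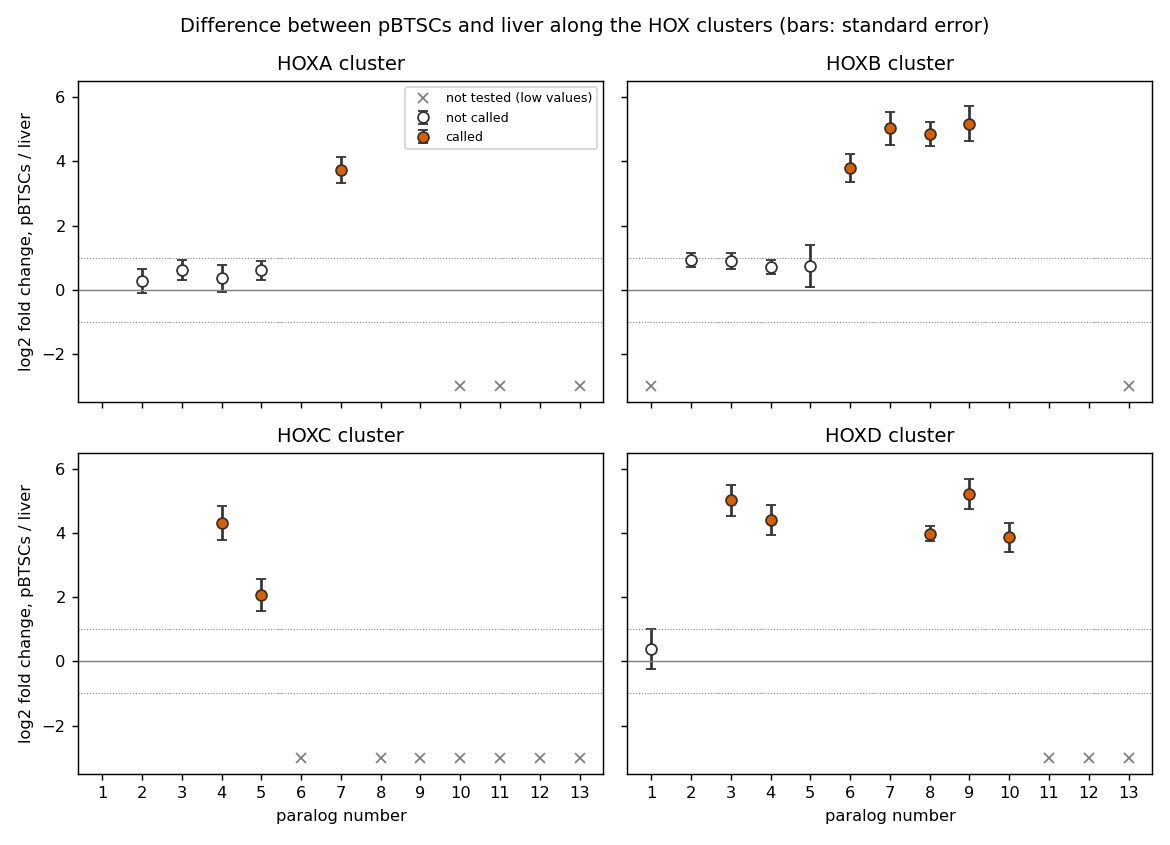
Log2 fold change of pBTSCs against liver (vertical axis) by paralog number (horizontal axis) in each HOX cluster, with standard errors as bars. Filled points were called, open points were not, and crosses mark members too low to test. The step lies between the tested paralogs 5 and 7 in HOXA, 5 and 6 in HOXB, and 1 and 3 in HOXD.

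The HOXB cluster showed this step within 1 row of neighbouring genes. HOXB5, a regulator of enteric neural crest and lung development, stood at 83.7, 56.6, 75.7, 62.8 and 75.7 in pBTSC libraries S2, S7, S11, S15 and S20, and liver ranged from 0 to 103 with a median of 72.5. The groups overlapped throughout, and the log2 fold change was 0.74 (SE 0.66, adjusted p = 0.373). That value turned on the CD146+ libraries, since the liver value of 0 was shallow S22. Without S22 it was 0.12, and without S17, which left S22 alone in its sort, it was 1.37 (adjusted p = 0.00447). Its neighbour HOXB6 stood at 26.5, 25.9, 23.1, 50.3 and 29.3 in pBTSCs and between 0 and 3.96 in liver, with a liver median of 1.41. The ranges of the tissues did not meet, and the log2 fold change was 3.79 (SE 0.44, adjusted p = 2.0e-06). The 50.3 in S15 rested on 4 reads.

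HOXB7, the next gene, stood at 275, 211, 228, 264 and 271 in pBTSCs. In the 13 deeper liver libraries it did not exceed 19.6, and the 25.7 in S13 was a single read. The medians were 264 in pBTSCs and 7.89 in liver, 33.4-fold apart. HOXB9, a gene of the thoracic trunk, stood at 177, 112, 115, 126 and 62.8 in pBTSCs and between 0 and 9.46 in liver, with a median of 2.29. Its log2 fold change was 5.17 (SE 0.54, adjusted p = 5.8e-07). HOXB8, known for its part in myeloid progenitors, ranged from 44.5 to 101 in pBTSCs and from 0 to 5.10 in liver. Neither tissue's range met the other's in any of these 3 genes. HOXB7 and HOXB8 were singled out after their values were seen.

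The 3 HOXB genes nearest the 3′ end that were tested were expressed throughout both tissues. HOXB2, which acts in the hindbrain, stood at 429, 465, 490, 415 and 563 in pBTSCs and from 138 to 398 in liver, with a liver median of 229. All pBTSC libraries were above all liver libraries, yet the log2 fold change of 0.93 (SE 0.212, adjusted p = 0.00167) was below the size required for a call. HOXB3 stood at 310, 358, 317, 415 and 314 in pBTSCs and from 65.4 to 324 in liver, with a log2 fold change of 0.90 (SE 0.238, adjusted p = 0.00506). The tissues overlapped only in that 3 CD31+ or CD146+ libraries, at 312, 324 and 313, reached the lower pBTSC values. HOXB4, known for expanding blood stem cells when supplied to them, stood at 245, 287, 272, 189 and 206 in pBTSCs and from 85.0 to 232 in liver, and its log2 fold change was 0.70 (SE 0.216, adjusted p = 0.0134). With the libraries rescaled to the same total, HOXB2, HOXB3 and HOXB4 had log2 fold changes of 1.25, 1.22 and 1.02 and were called. That rescaling moved the median of all genes from 0.11 to 0.43, and the calls over all genes from 2504 higher and 1641 lower to 3563 higher and 1251 lower.

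HOXA showed the same division with a gap at HOXA6, which was not analysed here. HOXA5, a gene of lung and thoracic patterning, stood at 238, 511, 507, 414 and 224 in pBTSCs and from 84.1 to 320 in liver, with a median of 253. The tissues overlapped, and the log2 fold change was 0.61 (SE 0.301, adjusted p = 0.107). HOXA7 stood at 24.7, 57.1, 57.3, 62.8 and 40.7 in pBTSCs and from 0 to 15.7 in liver, with a median of 1.69. Every pBTSC library exceeded every liver library, and the log2 fold change was 3.74 (SE 0.404, adjusted p = 8.6e-07). Within liver the highest HOXA7 values, 15.7 and 7.80, were those of the 2 CD45-/EpCAM- libraries, and the next was 5.34. HOXA10, HOXA11 and HOXA13 were untested, with no pBTSC library above 0.518.

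The HOXD cluster differed over almost all of its expressed length. HOXD8 stood at 498, 500, 500, 628 and 606 in pBTSCs and from 18.6 to 61.8 in liver, with a median of 36.1. Its highest pBTSC value was 1.26-fold its lowest, no liver library came near them, and the log2 fold change was 3.98 (SE 0.237, adjusted p = 9.5e-10). HOXD3, which takes part in forming the upper vertebrae and in cell adhesion, stood at 120, 110, 128, 102 and 126 in pBTSCs and from 0 to 7.93 in liver, with a log2 fold change of 5.01 (SE 0.48, adjusted p = 2.0e-07). HOXD4 stood at 80.1, 75.8, 78.9, 37.8 and 55.3 in pBTSCs and from 0 to 6.5 in liver, with a log2 fold change of 4.40 (SE 0.462, adjusted p = 6.2e-07). The lowest pBTSC library was 8.05-fold, 12.8-fold and 5.81-fold the highest liver library in HOXD8, HOXD3 and HOXD4. For HOXD3 and HOXD4 that library was shallow S15, with 8.1 and 3 reads.

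HOXD9 and HOXD10 pattern the hindlimb and lower trunk. HOXD9 had the largest difference among the members described, with 51.9, 62.8, 87.7, 252 and 119 in pBTSCs and 0 to 4.67 in liver, and a log2 fold change of 5.21 (SE 0.463, adjusted p = 8.6e-08). Its 2 highest values were those of the wild-type piglets, S15 and S20. HOXD10 stood at 8.15, 18.1, 30.0, 25.1 and 36.9 in pBTSCs and did not exceed 1.80 in liver, with a log2 fold change of 3.86 (SE 0.449, adjusted p = 2.1e-06). The 25.1 in S15 rested on 2 reads. Beyond HOXD10 the signal ended, since HOXD11 was at 0.258 in S7 and at 0 in all other libraries, and HOXD13 was at 0 in every pBTSC library. HOXD1, at the other end of the cluster, stood at 7.03, 6.71, 6.36, 0 and 12.5 in pBTSCs and from 0 to 13.1 in liver, and was not called (log2 fold change 0.38, SE 0.636, adjusted p = 0.645).

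HOXC was the cluster with the fewest tested members. HOXC4 stood at 46.4, 75.5, 76.2, 101 and 19.3 in pBTSCs and from 0 to 6.92 in liver, with a log2 fold change of 4.32 (SE 0.532, adjusted p = 4.0e-06). HOXC5 was low everywhere, at 3.63, 10.1, 14.6, 0 and 3.35 in pBTSCs and at most 1.07 in liver, where 11 of 15 libraries were at 0. It had the smallest change among the members called higher (log2 fold change 2.07, SE 0.494, adjusted p = 0.00242). The 0 in S15 allowed a level of up to 37.7, and the 4 deeper pBTSC libraries were above all deeper liver libraries. Without S7 or S11 HOXC5 no longer reached the minimum for testing. HOXC6 followed at 1.35, 1.80 and 3.20 in S2, S7 and S11 and 0 in S15 and S20, and HOXC8 to HOXC13 did not exceed 1.92 in pBTSCs.

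Over the 4 clusters, 12 members had every pBTSC library above every liver library, against 11.9% of all genes tested, and none had every pBTSC library below, against 9.21%. The 12 were HOXA7, HOXB2, HOXB6 to HOXB9, HOXC4, HOXD3, HOXD4 and HOXD8 to HOXD10. HOXC5 joined them when the 3 shallow libraries were left out, which made 13 against 16.2% of all genes. The log2 fold changes of the 12 members called higher lay between 2.65 and 4.78 without those libraries, between 3.11 and 5.33 within S2 to S14, and between 3.74 and 5.95 for the 11 that could be fitted within S15 to S23. Within S15 to S23, 10 of them were called.

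Each liver sort was next set against the pBTSCs. Since the pBTSC libraries are shared by these comparisons, the counts are not independent of each other. Against CD45-/EpCAM+ cells 15 HOX genes were higher (14.8% of all genes). Against CD45-/EpCAM- cells 16 were higher (20% of all genes). Against CD45+ cells 12 were higher (11% of all genes). Against CD31+ cells 11 were higher (6.73% of all genes), and against CD146+ cells 13 were higher (14.5% of all genes).

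The same 11 members, HOXA7, HOXB6 to HOXB9, HOXC4, HOXD3, HOXD4 and HOXD8 to HOXD10, were called higher against each of the 5 sorts, as were 4.85% of all genes. HOXC5 was called against 4, with CD31+ cells as the exception (log2 fold change 1.42, adjusted p = 0.261). HOXB2 and HOXB3 were called against the 2 CD45- sorts, and HOXA3, HOXA5, HOXB4 and HOXB5 against 1 sort each. HOXA2, HOXA4 and HOXD1 were called against none. The HOXB5 call against CD146+ cells (log2 fold change 3.04, SE 1.05, adjusted p = 0.0387) rested on shallow library S22, which held no HOXB5 read, while the other CD146+ library stood at 74.1, within the pBTSC range.

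**Figure D3:**
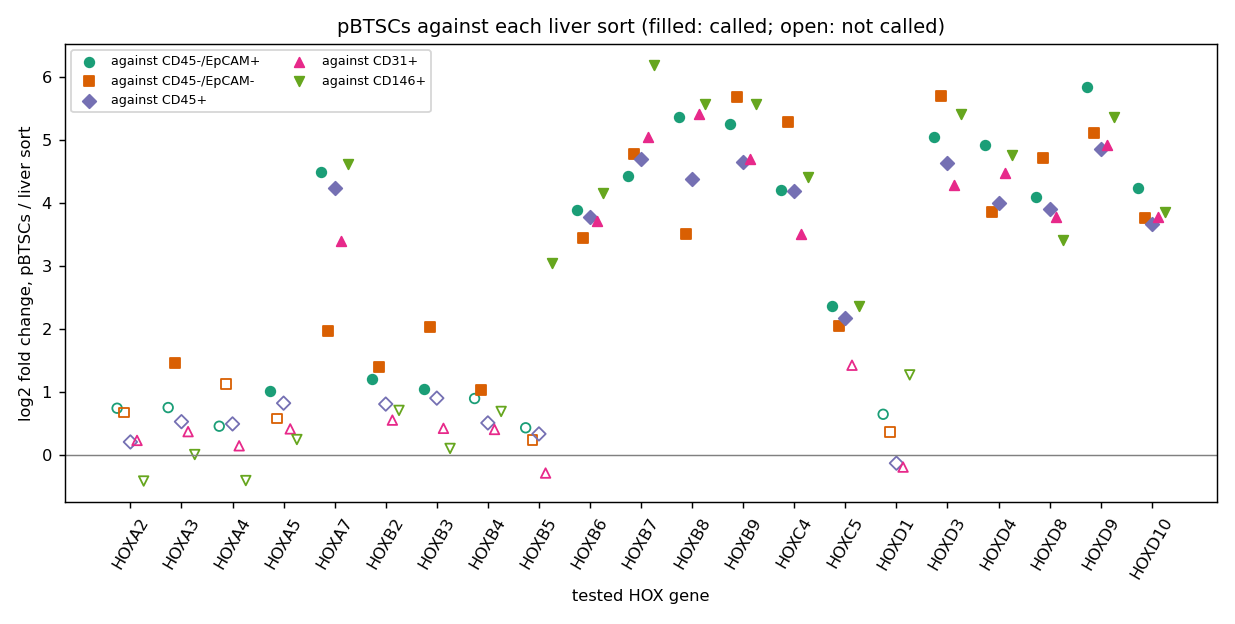
Log2 fold change of pBTSCs against each of the 5 liver sorts (vertical axis) for the 21 tested HOX genes described (horizontal axis), with filled symbols where the gene was called. The symbols of 11 genes from HOXA7 to HOXD10 are filled for all 5 sorts.

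The HOX genes were also compared among the liver sorts themselves. With 21 members tested, the calls below cannot be told apart from the shares over all genes. In the F test over the 5 sorts 0 of 21 were called by limma at adjusted p under 0.05, and 3 (HOXA7, HOXB3 and HOXB8) had an unadjusted p under 0.05. Over all genes the shares were 4.98% and 26.2%. When CD31+ and CD146+ cells, which were sorted by endothelial antigens, were set against the other 3 sorts, 1 HOX gene, HOXB3, was called higher and none lower (all genes, 3.25%, 3.72% and 6.97% either way). At an unadjusted p under 0.05 there were 5, against 37.1% of all genes.

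HOXB3 averaged 260 ± 73.0 (SD, n = 2) in CD31+ cells and 319 ± 8.13 (SD, n = 2) in CD146+ cells. It averaged 193 ± 71.4 (SD, n = 5) in CD45+ cells, 178 ± 84.6 (SD, n = 4) in CD45-/EpCAM+ cells and 85.1 ± 27.8 (SD, n = 2) in CD45-/EpCAM- cells. The log2 fold change was 1.07 (SE 0.269, adjusted p = 0.0234). All 4 endothelial libraries have storage numbers from S16 to S22, and HOXB3 also moved with these numbers. The 8 liver libraries from S3 to S14 ranged from 65.4 to 186, and the 7 from S16 to S23 ranged from 209 to 324, with no overlap. Within S15 to S23 the log2 fold change between the endothelial and the other sorts was 0.04, and with the run of storage numbers as a term it was 0.57, neither of them called. With 5 blocks of consecutive storage numbers as a term, each opening with a pBTSC library, it was 0.64 (adjusted p = 0.449).

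**Figure D4:**
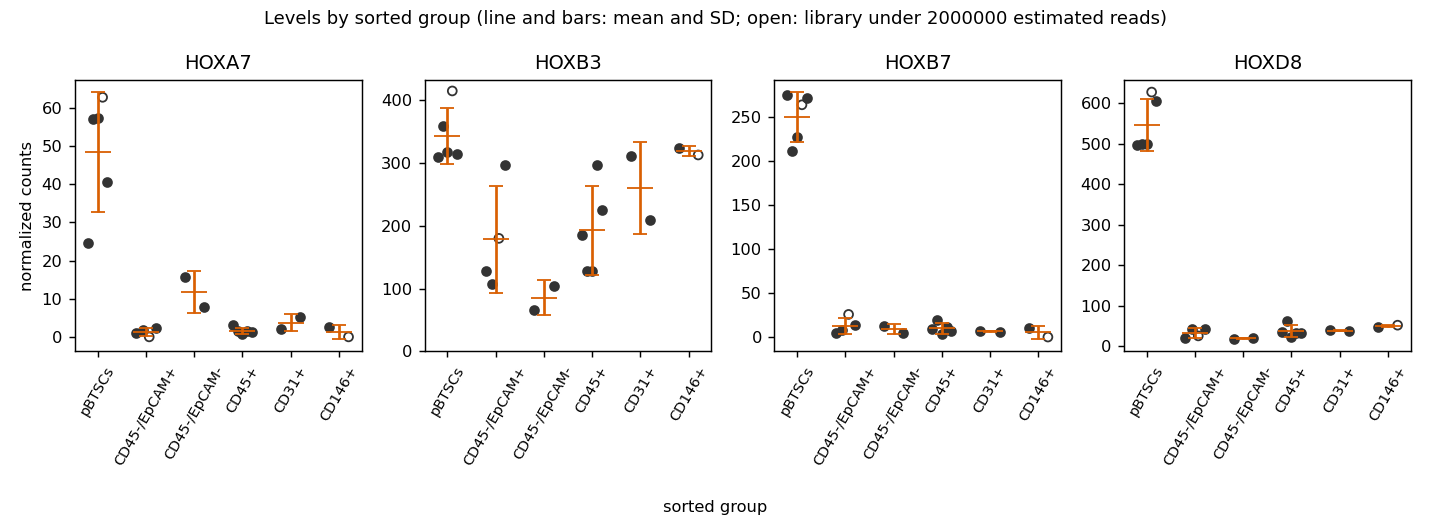
Normalized counts (vertical axis) of HOXA7, HOXB3, HOXB7 and HOXD8 in each library of the 6 sorted groups, with the group mean and SD as line and bars and open circles for libraries under 2000000 estimated reads. HOXA7, HOXB7 and HOXD8 are higher in every pBTSC library than in any liver library, and HOXB3 overlaps between the tissues.

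HOXA2, HOXA3 and HOXA4, all expressed in both tissues, were not called in pBTSCs against liver, with log2 fold changes of 0.28 (SE 0.377, adjusted p = 0.567), 0.62 (SE 0.302, adjusted p = 0.104) and 0.36 (SE 0.425, adjusted p = 0.515). Their pBTSC values fell into separate ranges by storage number. HOXA2, which patterns the branchial arches, stood at 84.1, 93.3 and 86.9 in S2, S7 and S11 and at 37.7 and 15.8 in S15 and S20. HOXA3, required for the thymus and parathyroid, stood at 411, 501 and 447 against 250 and 103, and HOXA4 at 64.2, 74.8 and 71.1 against 14.4 and 21.5. In all 3 genes the lower values were those of the wild-type piglets. S15 held 3 HOXA2 reads, 19.9 HOXA3 reads and 1.15 HOXA4 reads, but S20 is a deeper library. For HOXA2 and HOXA4 only S20 of the wild-type libraries was above 3 reads, so their lower range rested on 1 library.

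Within S2 to S14 these 3 genes were called higher in pBTSCs, with log2 fold changes of 1.26, 1.55 and 1.60. Within S15 to S23 the direction turned, to -0.95, -0.55 and -1.22, and none was called. The change of the tissue difference between the runs was tested in a fit of the groups present in both, pBTSCs against CD45-/EpCAM+ and CD45+ liver cells. With all libraries none of the HOX genes described was called (1.07% of all genes). By limma the adjusted p was 0.157 for HOXA2, 0.157 for HOXA3 and 0.132 for HOXA4. At an unadjusted p under 0.05 there were 6 (HOXA2, HOXA3, HOXA4, HOXB2, HOXB3 and HOXC5) of 21, against 14.8% of all genes. Without the 3 shallow libraries, where S20 alone stood for the wild-type pBTSCs, HOXA3 differed between the runs by -2.49 (SE 0.315, adjusted p = 0.0104) and HOXA4 by -2.61 (SE 0.497, adjusted p = 0.0442), and HOXA2 by -2.49 (SE 0.516, adjusted p = 0.0578). Over all genes 1.29% were called there. This fit was chosen after the data were seen. The run of storage numbers and the piglet line coincide in the pBTSCs and cannot be told apart. By the study's supplement the RNA integrity number, a measure of how intact the RNA was, was lower in S2, S7 and S11 than in S20. None was given for S15. RNA integrity therefore cannot be told apart from run and line either.

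**Figure D5:**
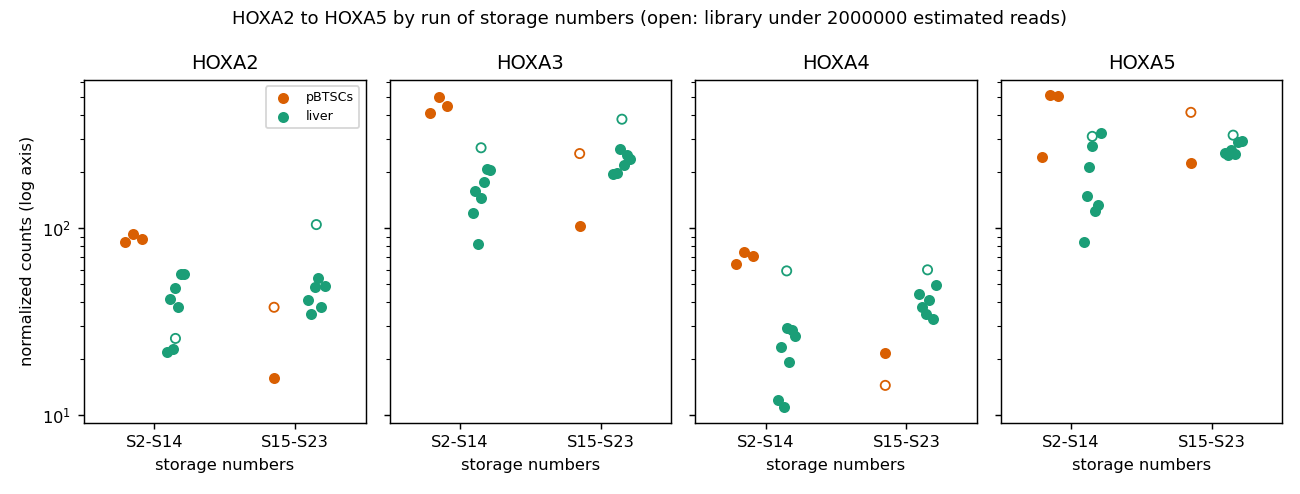
Normalized counts (vertical log axis) of HOXA2 to HOXA5 in pBTSCs and liver by run of storage numbers (horizontal axis), 1 point for each library and open points for libraries under 2000000 estimated reads. For HOXA2, HOXA3 and HOXA4 the 3 pBTSC libraries of S2 to S14 lie above the deeper liver libraries, while S20, the deeper pBTSC library of S15 to S23, lies below all of them in its run.

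The spread over the 5 pBTSC libraries differed between members at both ends of the clusters. The highest value was 1.26-fold the lowest for HOXD3 and HOXD8, 1.3-fold for HOXB7 and 1.34-fold to 1.52-fold for HOXB2 to HOXB5. It was 4.53-fold to 5.89-fold for HOXA2, HOXA3, HOXA4, HOXC4, HOXD9 and HOXD10. Shallow S15 held the lowest HOXA4 value and the highest HOXC4 and HOXD9 values, at 1.15, 8.06 and 20 reads. In the deeper pBTSC libraries HOXA4 ranged from 21.5 to 74.8, HOXC4 from 19.3 to 76.2 and HOXD9 from 51.9 to 119. The difference between runs of the 12 members called higher ranged from -2.39 for HOXC5, which had no read in S15, to 1.02 for HOXD9, with adjusted p from 0.315 to 0.991. HOXA7, HOXB6 to HOXB9 and HOXD8 lay between -0.18 and 0.50, whereas HOXD3 stood at -1.05 and HOXD4 at -1.60. Without the 3 shallow libraries, where S20 alone stood for the later pBTSCs, HOXD3 was at -0.55 and HOXD4 at -1.15. HOXC4 moved the other way, from -0.55 to -1.33.

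Other cell type markers also differed between the tissues, where 16.1% of all genes were called higher and 10.5% lower. All 8 fibroblast and stellate cell markers tested were higher in pBTSCs, such as LUM with a log2 fold change of 6.54 and COL1A1 with 3.57, and their sum ranged from 360042 to 1648499 in pBTSCs and from 30133 to 153766 in liver. All 4 smooth muscle markers tested and all 5 Schwann cell and neural markers tested were higher, with summed levels of 73401 to 171690 against 10549 to 90402 for smooth muscle and 2259 to 11158 against 305 to 1779 for the neural list. All 9 hepatocyte markers were lower. Of the biliary epithelium markers, 1 of 6 was called (SPP1), and of the mucous epithelium markers 3 of 4 were higher. The haematopoietic progenitor markers CD34, GATA2 and MYB, 3 of 5 tested, were higher. Their list summed to 6769 to 10713 in pBTSCs and 1553 to 6266 in liver, with no overlap. MYB was at -0.42 within S2 to S14 and at 3.45 within S15 to S23. Of 6 erythroid markers 2 were higher (HBB and ALAS2), with sums of 29339 to 128617 in pBTSCs and 1479 to 863628 in liver. Within S2 to S14 HBB was at 0.28 and ALAS2 at 0.34, neither of them called, and within S15 to S23 they were at 4.94 and 4.47. Of 6 leukocyte markers 3 were lower (CD68, CD163 and CSF1R) and 1 higher (CD3E), with sums of 3462 to 8293 against 14918 to 72527. Here too the runs differed, with CD3E at 0.44 within S2 to S14 and 3.36 within S15 to S23, and CSF1R at -2.11 and -0.46. Of 8 endothelial markers 2 were higher (PECAM1 and VWF) and 2 lower (STAB2 and LYVE1), and the sums overlapped. PECAM1 was at 1.665 within S2 to S14 and at 0.44 within S15 to S23. No list had a marker at 0 in all pBTSC libraries.

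Among the pBTSC libraries the fibroblast sum was 360042, 374118, 931716, 1638425 and 1648499 in S2, S7, S11, S15 and S20, a 4.58-fold range. HOXD8 in the same order was 498, 500, 500, 628 and 606, and HOXB7 was 275, 211, 228, 264 and 271. The neural sum was 8421 to 11158 in S2 to S11 and 2259 to 2866 in S15 and S20, the same division of libraries as for HOXA2 to HOXA4. The hepatocyte sum was 27064 to 30211 in S2 to S11 and 54144 to 70877 in S15 and S20. The part of these cell types in the HOX differences was not tested.

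The genes that work with HOX proteins or set their expression were described by lists, beside the median log2 fold change of 0.11 over all genes. The counts in each list stand beside 16.1% of all genes called higher and 10.5% called lower. Of 8 TALE-class cofactors described, which bind DNA together with HOX proteins, 2 were higher and none lower, with a median of 0.54. MEIS3 ranged from 219.8 to 390 in pBTSCs and from 42.6 to 209 in liver (log2 fold change 1.49, adjusted p = 5.9e-05), and PKNOX2 had a log2 fold change of 1.26, which was 0.54 and not called within S15 to S23. MEIS2 was at 0.62 and was not called.

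Of the related homeobox genes outside the clusters, 3 of 9 were tested and 1 was higher, with a median of 1.18. PDX1, which specifies pancreas and the adjoining foregut, ranged from 71.9 to 147 in pBTSCs and from 0 to 93.8 in liver, the 0 being shallow library S22 (log2 fold change 1.68, adjusted p = 0.0225). Within S15 to S23 it was not called (adjusted p = 0.518). CDX2, an intestinal regulator of HOX genes, had a log2 fold change of 1.18 (adjusted p = 0.11).

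Of the 16 Polycomb group genes tested, 2 were higher and none lower, with a median of 0.36. These were CBX6 (1.38, adjusted p = 2.0e-08) and CBX7 (1.07, adjusted p = 0.0412), both readers of the repressive histone mark, of which CBX7 was called within neither run of storage numbers, while the methyltransferase EZH2 was at -0.21 and not called. Of the 9 trithorax and demethylase genes tested none was called, with a median of 0.16. KMT2A, the methyltransferase best known for maintaining HOX expression, came nearest at 0.98 (adjusted p = 4.1e-04), below the size for a call. It was called at 1.06 with the blocks as a term and at 1.25 within S2 to S14. Within S15 to S23 it was at 0.74 and not called. By limma 3 of these 9 (KMT2A, KDM6A and KDM6B) had an adjusted p under 0.05, and none of them reached the size for a call. The Polycomb genes JARID2, PCGF2, CBX2, PHC1 and PHC3 also had an adjusted p under 0.05 without reaching that size. The share of all genes under this threshold alone was not counted. KDM6A was at 0.47 (adjusted p = 0.0205) and KDM6B at 0.37 (adjusted p = 0.0379).

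The retinoic acid pathway changed in both directions, with 4 of 16 genes tested higher and 6 lower and a median of 0.28. Among the receptors, RXRG ranged from 117 to 272 in pBTSCs and from 0 to 17.04 in liver (log2 fold change 4.40, adjusted p = 2.3e-05), and RARG was higher at 1.08. RARB and RXRA were lower, at -1.06 and -1.03. The uptake protein STRA6 and the carrier CRABP2 were higher, at 3.38 and 2.79. The synthesis enzyme ALDH1A1 was lower at -2.67, as were CYP26A1 and CYP26B1, which break retinoic acid down, at -3.48 and -1.92. CRABP1 was lower at -1.91. Most of these calls were not made in both runs of storage numbers, and of the 10 only RXRG and ALDH1A1 were called in each. CYP26A1 ranged from 0 to 5.30 in the liver libraries of S3 to S14, against 0.673 to 2.26 in pBTSCs S2 to S11, and from 154 to 200.1 in those of S16 to S23, against 0 and 1.81 in S15 and S20. Its lower level in pBTSCs was therefore a difference from the later liver libraries, and within S2 to S14 it was too low to test. CYP26B1 was at -0.82 (adjusted p = 0.483) within S2 to S14 and at -3.05 within S15 to S23, and CRABP1 at -3.23 and -0.16 (adjusted p = 0.524).

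The genes that border the clusters were used to see whether the HOX differences ran on into the neighbourhood. Neighbours were taken from the RefSeq gene order of the assembly Sscrofa11.1, as 3 named genes on each side of each cluster, 24 in all. Of these 20 were tested, 1 was higher and 1 lower, against 16.1% and 10.5% of all genes, and the median log2 fold change was 0.09. SKAP1, beside HOXB, was higher at 1.32 (adjusted p = 0.0195) but stood at 0.12 within S2 to S14, and HIBADH, beyond the 5′ end of HOXA, was lower at -1.72 (adjusted p = 3.1e-07). EVX1 and EVX2, the homeobox genes next to HOXA13 and HOXD13, did not exceed 1.03 in any library. In the same annotation 6 members lie in 6 pairs of overlapping genes, HOXA3 with HOXA4, HOXA5 and HOXA6, HOXA5 with HOXA6, and HOXD9 with HOXD10 and HOXD11. Reads in the shared stretches could be assigned to either gene, so the values of these genes are less certain than those of the others.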

How the data were processed

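RNA of 20 pig libraries was sequenced from poly(A) RNA with a stranded kit. The values deposited by the authors are normalized counts per gene (a signal with no negative values), in a single table for all libraries. The submitters' processing notes name STAR, Salmon and DESeq2, and neither the genome build nor the use of strand in counting is given in the sources used here. The table's mean over all libraries was not used. Groups came from the labels, and piglet lines from the study's supplement.

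The worth of 1 read was estimated in each library from the most frequent low values. No more than 81.7% of low values were whole reads to a tolerance of 0.05, and count tests were not used. Intervals and floors cover counting error only.

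Tests were made on log2(normalized count + 1) with limma 3.58.1 in R 4.3.3, using eBayes with trend. Genes needed 10 normalized counts in 2 libraries or more, which 15576 had, and Benjamini-Hochberg adjustment ran over all of these. On simulated data for pBTSCs against liver (15241 genes), 87% of genes changed 4-fold and 94% of those changed 8-fold were recovered. The simulated libraries were independent, with the same dispersion for all genes and no differences among liver sorts, runs or blocks. The rates hold for those settings only.

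The HOX members and gene lists were chosen with earlier results of these data known. Values by library were given for the 4 tested members of each cluster with the highest mean level, the called members with the largest and the smallest change, each tested member not called higher, and any called among liver sorts, and the 2 genes of each list with the largest change were named. Other genes were named after their values were seen. Alternatives changed the pseudocount, filter, scaling, weights, libraries, run of storage numbers and moderation, and blocks of storage numbers were added after the data were seen. One HOX gene and one cofactor gene are not reported here and were left out of counts of members and lists, though both remained in the fit. Of the 36 members described 33 were found in the RefSeq gene table, which was used for gene order only.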

Additional observations from a re-analysis of the deposited data

Results flagged for a closer look

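In 56 sets of 4 or 5 libraries of 1 HOX gene, the highest or lowest library stood apart from the rest by Dixon's criterion in 5, and chance gives about 1 in 20. HOXB6 in pBTSCs was highest in shallow library S15 at 50.3, where 1 read was worth 12.6. HOXD1 in CD45+ cells was highest in S8 at 13.1. HOXC5 in CD45+ cells was at 0.901 in S23 and at 0 in the other 4. HOXD10 in CD45-/EpCAM+ cells was at 0.941 in S19 and at 0 in the other 3. HOXD9 in CD45-/EpCAM+ cells was at 0 in shallow library S13, where 0 allows up to 77.1.

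The difference of pBTSCs from CD45-/EpCAM+ and CD45+ liver cells changed between the runs of storage numbers in 2 members. Without the 3 shallow libraries the change was -2.49 for HOXA3 and -2.61 for HOXA4 on the log2 scale (S15 to S23 minus S2 to S14), and both passed the test of the difference. With all libraries neither passed it. Run, piglet line and, where it was given, RNA integrity cannot be told apart.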

How the results depend on the processing

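Of the 12 HOX calls in pBTSCs against liver, all 12 were kept with pseudocount 0.1, no filter, rescaled libraries, array weights, eBayes without trend, a run term and without the 3 shallow libraries. A pseudocount of 10 lost HOXC5, and a filter of 50 normalized counts left HOXB6, HOXC5 and HOXD10 untested. Within S15 to S23 the calls fell to 10, without HOXC4 (3.74) and with HOXC5 too low to test, and within S2 to S14 they rose to 18. HOXA2, HOXA3 and HOXA4 reversed within S15 to S23 (-0.95, -0.55 and -1.22).

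Against CD45-/EpCAM+ cells 15 members were called in all and 2 within S15 to S23, where 1 CD45-/EpCAM+ library remained and was assumed to vary like the other groups. Against CD31+ cells the 11 calls became 7 within S15 to S23. The single call in endothelial against other liver sorts became 0 with array weights, without the shallow libraries, with a run term, with both of these together, with the blocks described below, within S15 to S23 and with the liver groups alone, and 2 with eBayes without trend. Leaving out 1 library at a time gave 11 to 14 calls against liver, 0 to 3 in the endothelial comparison and 0 to 3 in the F test. The 0 calls in the endothelial comparison arose without CD45-/EpCAM+ S9, CD45-/EpCAM- S5, either CD31+ library or CD146+ S22. The 3 calls in each comparison arose without CD146+ S17, which left shallow S22 alone in its group, and without CD45-/EpCAM+ S19 the F test called 1. The cause was not tested.

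The labels give groups no shared replicate numbers. The storage numbers fall into 5 blocks, each opening with a pBTSC library, and a fit with these blocks as a term was added after the data were seen. Between deeper liver libraries of different sorts, deviations from the group means had a median correlation across genes of 0.361 within a block (12 pairs) and -0.0797 between blocks (51 pairs). For pBTSC and liver pairs the medians were 0.12 and -0.00536. Whether a block is 1 piglet or litter is not given in the sources used here. All 12 HOX calls against liver were kept with the block. CD45-/EpCAM- cells could not be compared within S15 to S23, nor CD31+ and CD146+ cells within S2 to S14. A fit of only the groups compared is the same as the reported one for pBTSCs against all liver. In the shallow libraries members under about 77 normalized counts are at or below 3 reads in S13, and under 156 in S22.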
